A study of Drosophila melanogaster with 9 samples.

Results

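The genes described here make the insect steroid hormone ecdysone. They were 10 named genes of ecdysteroid synthesis (nvd, spo, spok, sro, ouib, phm, dib, sad, shd and Cyp6t3) among the 11983 genes measured, and all 11 probe sets annotated to them were taken among the 18952 on the array. Of these probe sets, 2 read shd and each of the other genes had 1. The genes were selected on their log2 differences between the groups of this series: the list was written when the largest of these were already known. Their values and differences are therefore given as a description, without a test. The gene called phm is phantom, listed as phtm in current annotation. It is not Phm, an unrelated gene of similar name whose probe sets were left out.

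RNA of Drosophila melanogaster eye imaginal discs, the larval epithelia that form the adult eye, was taken from larvae in the third instar and hybridized to the Affymetrix Drosophila Genome 2.0 Array. There were 3 groups of 3 biological replicates, 9 arrays in all: rbf1 mutant discs (genotype rbf1120a Gal4), discs overexpressing PSC (genotype w1118 psc) and control discs (genotype w1118 Gal4). Rbf is the fly retinoblastoma family protein, and PSC belongs to Polycomb repressive complex 1. The labels name no Gal4 driver, give no Gal4 for the PSC discs, and do not give the age of the larvae within the instar. Stock and genotype go together, and their effects cannot be told apart.

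Ecdysteroids are made from dietary sterols by a chain of enzymes encoded by the Halloween genes, named after the cuticle-less look of mutant embryos. In larvae most of the chain works in the prothoracic gland, the largest part of the ring gland, which lies on top of the brain and is not part of the eye disc. The gland releases ecdysone in pulses that time the larval molts and the onset of metamorphosis, under control of the brain hormone PTTH. Other tissues turn ecdysone into the active hormone with the last enzyme, Shd. The hormone then acts through the EcR and Usp receptor pair.

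Values are log2 intensities as the authors normalized them, so that 1 unit is a 2-fold difference. Array medians lay between 5.83 and 5.92, and the lower quartile of all genes lay between 4.74 and 4.80. Levels of different genes are not set against each other, since each probe set binds with its own strength. The genes altered by design were read as a check. Psc was 12.50 ± 0.02 (SD, n = 3) in PSC discs and 9.84 ± 0.03 in control discs, and Rbf was 9.42 ± 0.10 in the rbf1 mutant and 9.78 ± 0.10 in the control. The 8 eye disc genes read as tissue markers (ey, toy, so, eya, dac, gl, ato, Optix) lay between 9.38 and 12.62 on every array. Of these, toy was lower in the rbf1 mutant than in control, by 0.24 (limma adjusted p = 0.0134). The toy call was lost without rbf1 replicate 2 (limma adjusted p = 0.0549), and it was also lost when its probe sets were averaged (limma adjusted p = 0.155). In PSC discs 0 of the 8 passed against control, where 2 had an unadjusted p under 0.05. In rbf1 mutant against PSC discs ato was lower by 0.52 and dac by 0.49 (limma adjusted p = 0.00996 and 0.0299). The ato call held whichever of the 6 arrays was left out, and the dac call held only without PSC replicate 3. Against control ato stood at -0.31 in rbf1 mutant discs without passing (limma adjusted p = 0.0842). It passed there without control replicate 3 (limma adjusted p = 0.0392).

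The first enzyme of the chain is Neverland, encoded by nvd, an oxygenase that acts on cholesterol. nvd stood at 8.56, 8.37 and 9.18 in rbf1 mutant discs, at 7.81, 9.53 and 8.87 in PSC discs, and at 6.84, 7.71 and 6.11 in control discs. All 6 arrays of the altered genotypes lay above all 3 control arrays, and PSC replicate 1 came within 0.10 of control replicate 2. The log2 difference from control was 1.82 (SE 0.50) in rbf1 mutant discs and 1.85 (SE 0.50) in PSC discs, or 3.52-fold and 3.61-fold. nvd also had the widest spread of the 10 genes over the 9 arrays, 3.42 log2 units.

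The steps after Neverland, whose chemistry is not fully resolved, need the cytochrome P450 enzymes Spook and Spookier and the dehydrogenase Shroud. spok, the form used in the larval gland, was 12.18, 11.72 and 12.83 in rbf1 mutant discs, 11.41, 12.85 and 12.34 in PSC discs, and 10.59, 11.49 and 9.78 in control discs. The rbf1 arrays lay above the control arrays, while PSC replicate 1 lay just below control replicate 2, so that the PSC and control groups overlapped. The log2 difference from control was 1.63 (SE 0.51) in rbf1 mutant discs and 1.58 (SE 0.51) in PSC discs.

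spo, its paralog used in the embryo and the ovary, did not follow spok. It was 6.11, 5.98 and 5.93 in rbf1 mutant discs, 5.77, 5.98 and 5.98 in PSC discs, and 5.74, 5.80 and 5.99 in control discs, and all 3 groups overlapped. The differences from control were 0.16 (SE 0.09) and 0.06 (SE 0.09) in rbf1 and PSC discs in turn. The name of the spo probe set carries the suffix that Affymetrix gives to sets matching more than 1 transcript.

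sro encodes Shroud. It was 9.16, 8.81 and 9.59 in rbf1 mutant discs, 8.94, 9.82 and 9.32 in PSC discs, and 8.44, 8.70 and 8.26 in control discs. Both altered groups lay above control, by 0.72 (SE 0.26) in rbf1 mutant discs and 0.89 (SE 0.26) in PSC discs. ouib encodes a zinc finger protein of the prothoracic gland known for turning on spok. It was 7.67, 7.30 and 7.97 in rbf1 mutant discs, 6.62, 8.10 and 6.98 in PSC discs, and 6.40, 6.48 and 6.06 in control discs. Its groups also lay above control, and its log2 difference was 1.34 (SE 0.35) in rbf1 mutant discs and 0.92 (SE 0.35) in PSC discs. The PSC value of ouib rested largely on replicate 2, with the other PSC arrays within 0.50 of the highest control array.

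The 3 P450 enzymes Phantom, Disembodied and Shadow then add hydroxyl groups in turn to give ecdysone. phm was 11.09, 10.40 and 11.50 in rbf1 mutant discs, 10.37, 11.83 and 11.18 in PSC discs, and 9.35, 10.04 and 9.01 in control discs. dib was 8.07, 7.95 and 8.47 in rbf1 mutant discs, 8.06, 9.32 and 8.51 in PSC discs, and 6.83, 7.30 and 6.81 in control discs. sad was 10.83, 10.25 and 11.41 in rbf1 mutant discs, 10.34, 11.69 and 11.01 in PSC discs, and 9.36, 9.89 and 8.81 in control discs. For all 3 genes every array of both altered genotypes lay above every control array. Of the 3, the gap between the groups was widest for dib, whose lowest altered array (rbf1 replicate 2, at 7.95) stood 0.65 above its highest control array (replicate 2, at 7.30). The difference from control was 1.53 (SE 0.43) in rbf1 and 1.66 (SE 0.43) in PSC discs for phm. It was 1.18 (SE 0.30) and 1.65 (SE 0.30) in these discs for dib, and 1.48 (SE 0.42) and 1.66 (SE 0.42) for sad.

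The last enzyme and the remaining P450 gene gave nearly constant values. shd, whose product Shade makes the active hormone outside the gland, was 5.89, 5.89 and 5.93 in rbf1 mutant discs, 5.81, 5.997 and 5.97 in PSC discs, and 5.98, 5.85 and 6.11 in control discs. The other shd probe set lay between 4.51 and 4.79 on all arrays. Cyp6t3, a P450 gene linked to ecdysteroid production in the prothoracic gland, was 4.56, 4.64 and 4.71 in rbf1 mutant discs, 4.62, 4.50 and 4.56 in PSC discs, and 4.62, 4.54 and 4.56 in control discs. These Cyp6t3 values are under the lower quartile of all genes on every array. No difference from control of shd or Cyp6t3 was larger than 0.08 in either direction, at standard errors between 0.06 and 0.08.

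**Figure D1:**
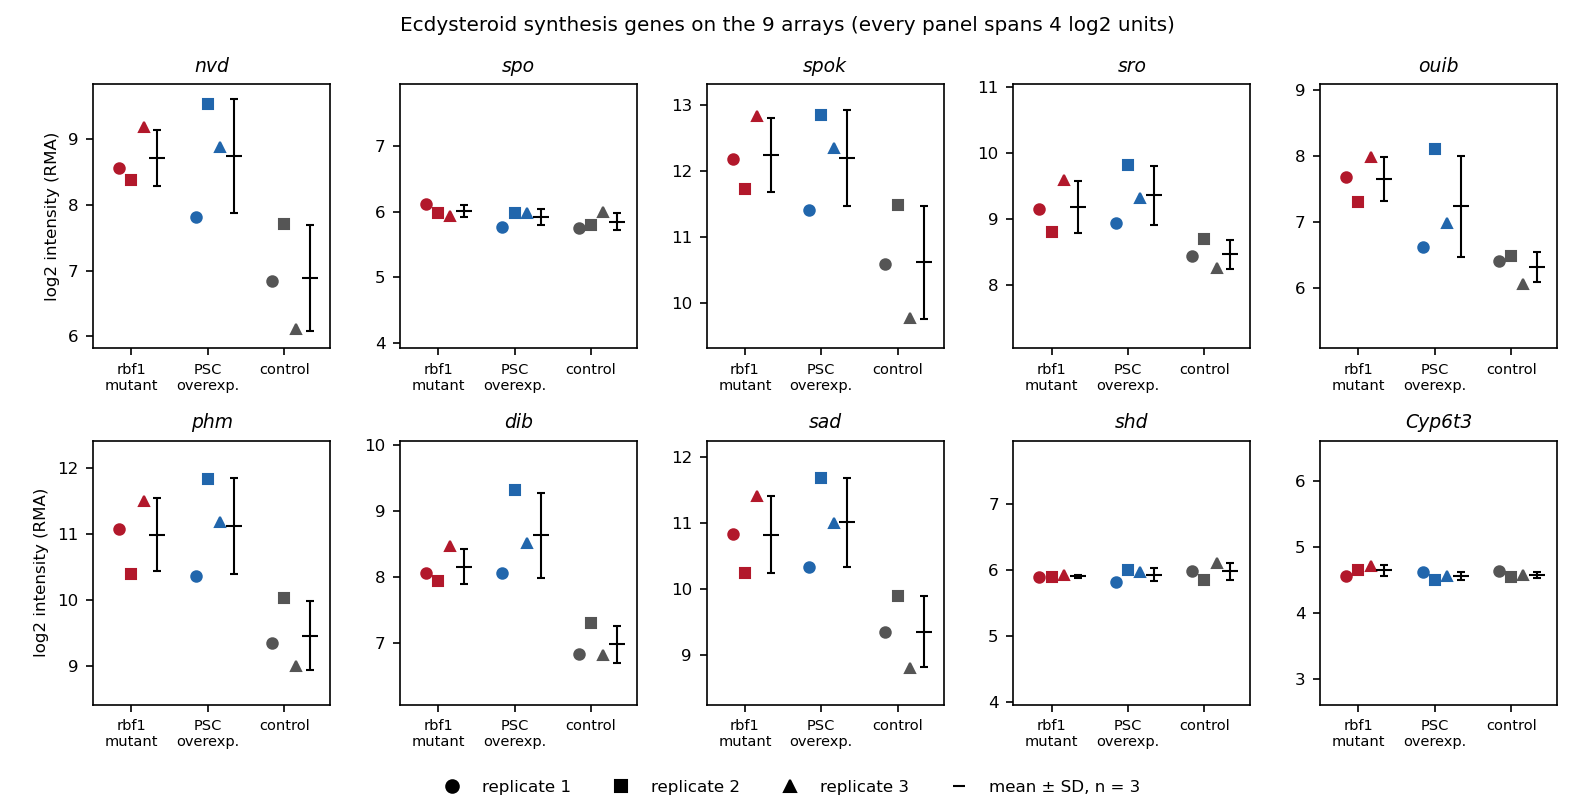
Log2 intensity of the 10 ecdysteroid synthesis genes in rbf1 mutant, PSC overexpressing and control discs, 1 point per array with the symbol giving the replicate number, and the mean with its SD (n = 3) beside it; every panel spans the same number of log2 units. nvd, spok, sro, ouib, phm, dib and sad stand lowest in control discs, while spo, shd and Cyp6t3 span at most 0.36 log2 units over all arrays.

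Counted over the 10 genes, 7 lay entirely above control in rbf1 mutant discs and 0 entirely below, where 15.7% of all genes lay entirely above and 13.2% entirely below. In PSC discs 6 lay entirely above and 0 below, where the shares of all genes were 11.3% and 10.4%. The median log2 difference of the 10 genes was 1.26 in rbf1 mutant discs and 1.25 in PSC discs, where the medians over all 11983 genes were -0.0042 and 0.0091. By limma over all genes, at a Benjamini-Hochberg adjusted p of 0.05, 2 of the 10 genes (dib and ouib) counted as higher in rbf1 mutant discs and 1 (dib) in PSC discs. The shares of all genes called higher were 6.31% and 1.42%. At an unadjusted p under 0.05, which 23.3% and 16.5% of all genes reached, 7 of the 10 were higher in each genotype. Nothing is read from these counts, since the genes were listed with these contrasts known, and both comparisons use the same control arrays.

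The counts of called genes moved with single arrays. In rbf1 mutant discs 0 of the 10 were called without control replicate 1, without control replicate 3, without any 1 of the rbf1 arrays or with arrays centred on their medians, while without control replicate 2 the called pair was spok and nvd. In PSC discs 0 were called without control replicate 1, control replicate 3 or PSC replicate 3. The number of genes lying entirely above control stayed between 7 and 8 in rbf1 mutant discs and between 6 and 7 in PSC discs whichever array was left out.

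Set directly against each other, the altered genotypes overlapped for all 10 genes, where 16.2% of all genes were entirely higher and 14.3% entirely lower in rbf1 mutant than in PSC discs. By limma 0 of the 10 were called, and 0 had an unadjusted p under 0.05, where 6.91% of all genes were called higher, 3.66% were called lower and 23.1% had such a p. The median log2 difference, rbf1 minus PSC, was -0.030, against -0.011 over all genes. The largest was that of dib, at -0.47 (SE 0.30), with ouib at 0.42 (SE 0.35). These standard errors leave room for differences of the same size as the estimates.

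**Figure D2:**
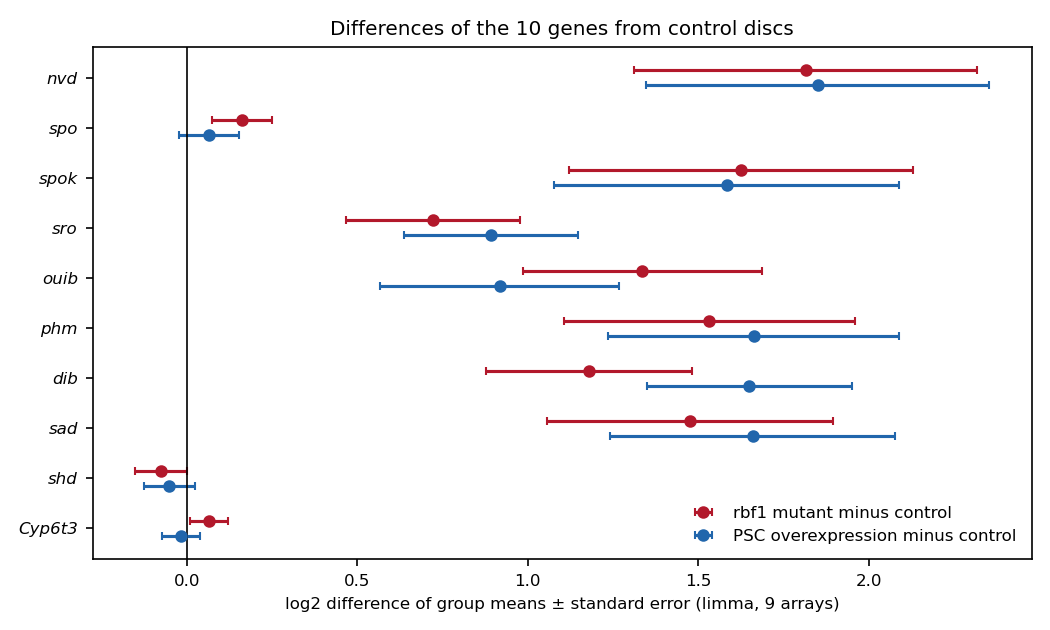
Log2 differences of the group means from control discs for the 10 genes, rbf1 mutant above PSC overexpression in each pair, with the standard error from limma as bars. nvd, spok, sro, ouib, phm, dib and sad lie between 0.72 and 1.85, and spo, shd and Cyp6t3 lie between -0.08 and 0.16.

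The arrays of 1 group differed from each other as well, and they did so in the same order for 7 of the 10 genes. In rbf1 mutant discs nvd, spok, sro, ouib, phm, dib and sad were all highest in replicate 3 and lowest in replicate 2. In PSC discs all 7 were highest in replicate 2 and lowest in replicate 1, and in control discs all 7 were highest in replicate 2 and lowest in replicate 3. These 7 genes are those with a spread over the 9 arrays of at least 1 log2 unit. The narrowest of them was sro at 1.56, and the widest of the other 3 was spo at 0.36. Of spo, shd and Cyp6t3, 1 had the common order in PSC discs and 0 had it in the other groups. Within groups the spread reached 1.16 in rbf1 mutant discs (sad), 1.72 in PSC discs (nvd) and 1.72 in control discs (spok), about as large as the differences between groups.

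Correlations between the genes describe the same pattern. Over the 21 pairs of these 7 genes, Pearson's r over the 9 arrays had a median of 0.96 and ran from 0.85 (dib with ouib) to 0.996 (phm with sad). With each group's mean subtracted, so that only differences among replicates remained, the median was 0.93 and the range was 0.79 to 0.99. All values of 1 array come from 1 RNA sample. The r of spo with spok was 0.34 over the 9 arrays, and -0.05 once group means were subtracted. Pairs among spo, shd and Cyp6t3 had r between -0.22 and 0.31 over the 9 arrays. In RNA of whole dissected discs, fewer cells of a type and less RNA per cell cannot be told apart.

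**Figure D3:**
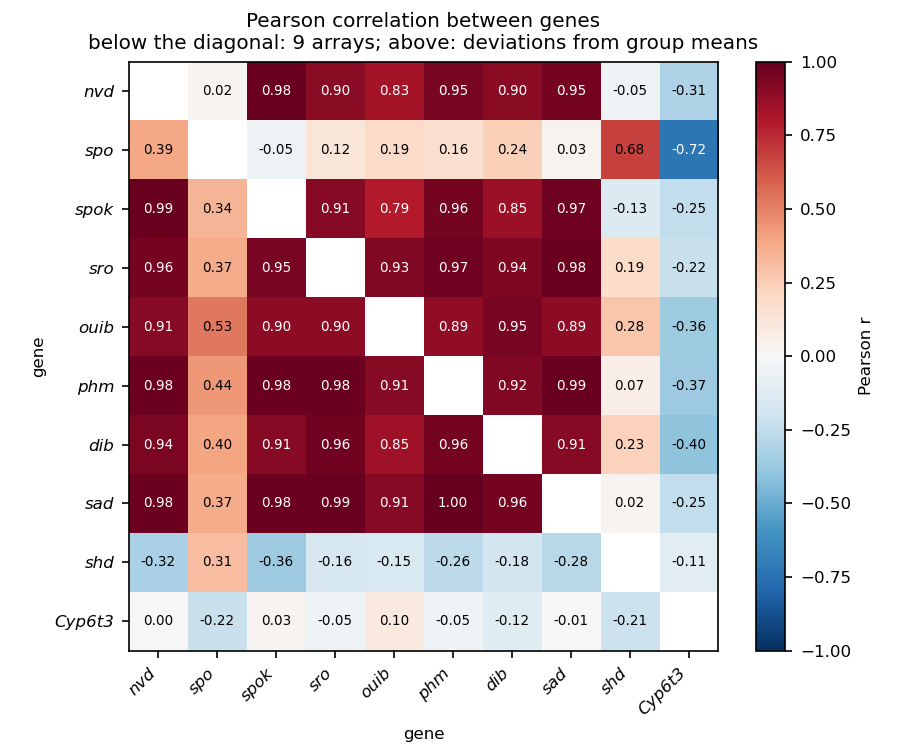
Pearson correlation between every pair of the 10 genes, over the 9 arrays below the diagonal and for deviations from the group means above it, in colours from blue (-1) to red (1). The 7 genes nvd, spok, sro, ouib, phm, dib and sad form a block with r of at least 0.79 on both sides of the diagonal, and spo, shd and Cyp6t3 lie outside it.

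The genes whose pattern was most like that of the 10 were sought among the 470 other genes with an SD of at least 0.5 over the 9 arrays, by Pearson's r with the mean of the 10 genes after each was centred. The closest was GstE14, at r = 0.99 (Spearman's rho 0.98, and r = 0.98 without control replicate 3 and PSC replicate 2, the arrays farthest from the median). GstE14, also known as noppera-bo, encodes a glutathione transferase that itself is needed for ecdysteroid synthesis in the prothoracic gland, and it was not on the list of 10. GstE14 was 8.70, 8.04 and 9.20 in rbf1 mutant discs, 8.23, 9.86 and 8.85 in PSC discs, and 7.13, 7.93 and 6.63 in control discs. Both altered groups lay above control, by 1.42 (SE 0.48) in rbf1 mutant discs and 1.75 (SE 0.48) in PSC discs, and its replicates had the order of the 7 genes above in all 3 groups.

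The next in likeness were CG4408 (r = 0.94), the nocturnin gene cu (0.94), tor (0.93), jhamt (0.92), CG15919 and CG11594 (0.90 each), Lectin-galC1 (0.85), raskol (0.84) and CG3588 (0.83). tor encodes Torso, the receptor through which PTTH acts on the prothoracic gland, and jhamt encodes the methyltransferase of juvenile hormone synthesis, which works in the corpus allatum, another part of the ring gland. With group means subtracted, r stayed at 0.99 for CG4408 and cu, 0.94 for Lectin-galC1, 0.88 for tor and 0.83 for jhamt. For raskol it was 0.25. raskol is a gene with nearly constant values within each group: it averaged 9.36 ± 0.05 in rbf1 mutant discs, 9.50 ± 0.02 in PSC discs and 7.65 ± 0.10 in control discs (SD, n = 3 each). Its likeness to the 10 genes thus lay in the step between groups.

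The other genes of the pathway were taken from 4 lists with 40 measured genes between them, and were tested with limma over all 11983 genes. In rbf1 mutant against control, PSC against control and rbf1 mutant against PSC, 6.31%, 1.42% and 6.91% of all genes were called higher. In the same order 3.92%, 2.38% and 3.66% were called lower, and 23.3%, 16.5% and 23.1% had an unadjusted p under 0.05. Of 6 measured genes for sterol supply and electron transfer, 0 passed in any of the 3 comparisons, while 3, 4 and 1 had an unadjusted p under 0.05 in rbf1 mutant against control, PSC against control and rbf1 mutant against PSC. Start1, a sterol transfer protein gene of the prothoracic gland, was 11.42, 10.94 and 11.46 in rbf1 mutant discs, 11.07, 11.87 and 11.35 in PSC discs, and 10.55, 10.85 and 10.38 in control discs. Its groups lay above control without passing, at 0.68 in rbf1 mutant discs (SE 0.23, limma adjusted p = 0.106) and 0.83 in PSC discs (SE 0.23, limma adjusted p = 0.0988). Npc1a, which moves sterols out of endosomes, stood at 0.47 and 0.55 against control in rbf1 and PSC discs (limma adjusted p = 0.135 and 0.143). Start1 and Npc1a were singled out after their values had been seen, and their r with the mean of the 10 genes was 0.98 and 0.94. The rest of the list did not all follow. Npc2a lay below control in both genotypes, at -0.15 in rbf1 and -0.25 in PSC discs, with r = -0.82. Npc2b stood at 0.10 and -0.38 in these discs, with r = -0.07. For Fdx1 the differences were 0.20 and 0.07 (r = 0.42), and for Fdx2 they were 0.06 and 0.002 (r = 0.60). The median differences from control of this list were 0.15 in rbf1 mutant discs and 0.034 in PSC discs.

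Of 11 measured regulators of the prothoracic gland, 4 had an unadjusted p under 0.05 in rbf1 mutant discs against control, where 23.3% of all genes did. After adjustment 0 rose and 1 fell there, where 6.31% of all genes were called higher and 3.92% were called lower. The 1 was Ptth, the gene of the brain hormone that drives the gland, which stood at 6.07, 5.99 and 5.83 in rbf1 mutant discs against 6.27, 6.22 and 6.27 in the control. The log2 difference was -0.29 (SE 0.07, limma adjusted p = 0.0272). With 1 array left out, the call held only without rbf1 replicate 1, and limma adjusted p ran from 0.0229 to 0.083. It was also lost with only the 6 arrays compared (limma adjusted p = 0.0637). In PSC discs 0 of the 11 passed and 2 had an unadjusted p under 0.05, where 2.38% of all genes were called lower. In rbf1 mutant against PSC discs 0 passed and 1 had an unadjusted p under 0.05. Without PSC replicate 1, ftz-f1 passed there, higher by 0.71 in rbf1 mutant discs (limma adjusted p = 0.02). tor was 5.19, 4.79 and 5.67 in rbf1 mutant discs, 4.64, 5.76 and 5.69 in PSC discs, and 4.42, 4.67 and 4.40 in control discs, with limma adjusted p of 0.215 and 0.212 for the 2 genotypes against control. The control values of tor and its value in PSC replicate 1 lay under the lower quartile of all genes on their arrays. Without PSC replicate 1, tor passed in PSC discs (limma adjusted p = 0.0423). vvl, a factor that turns on Halloween genes in the gland, was singled out after its values were seen, at 0.63 in rbf1 mutant discs (limma adjusted p = 0.0584) and 0.25 in PSC discs (limma adjusted p = 0.537).

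Of 5 measured genes for release, uptake and clearance of ecdysteroids, 0 passed against control in either genotype, and 1 in rbf1 mutant and 0 in PSC discs had an unadjusted p under 0.05. Between the altered genotypes 1 was higher in rbf1 mutant discs, where 6.91% of all genes were. It was Oatp74D, the ecdysone importer gene, at 12.00 ± 0.09 in rbf1 mutant discs and 11.77 ± 0.07 in PSC discs (SD, n = 3 each), a difference of 0.23 (SE 0.06, limma adjusted p = 0.0482). The call was lost with arrays centred on their medians and without any 1 of PSC replicates 1 to 3, rbf1 replicate 1 or rbf1 replicate 3 (limma adjusted p up to 0.161), and with only the 6 arrays compared (0.0964).

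Of 22 measured ecdysone receptor and response genes, 0 rose in either genotype against control, where 6.31% and 1.42% of all genes were called higher. An unadjusted p under 0.05 was reached by 4 in rbf1 mutant and 1 in PSC discs, and by 23.3% and 16.5% of all genes. br did not pass in rbf1 mutant discs (limma adjusted p = 0.0869), but it passed as higher there among genes above the median level (0.038). In rbf1 mutant discs 1 fell, where 3.92% of all genes were called lower. It was Edg78E, a cuticle protein gene, lower by 0.26 (SE 0.06, limma adjusted p = 0.0336). Its values lay under the lower quartile of all genes on every array. The call was lost without any 1 of the 6 arrays (limma adjusted p 0.0638 to 0.114). EcR was 11.13, 11.11 and 11.08 in rbf1 mutant discs, 10.87, 10.85 and 10.84 in PSC discs, and 10.92, 11.17 and 10.90 in control discs. Its difference from control was 0.11 in rbf1 mutant discs (limma adjusted p = 0.407, and 0.043 without control replicate 2) and -0.14 in PSC discs (limma adjusted p = 0.367). usp stood at 0.031 and -0.076 in these discs. The median of the 22 genes was 0.023 in rbf1 mutant discs and -0.083 in PSC discs. In rbf1 mutant against PSC discs 0 of the 22 passed, and 4 had an unadjusted p under 0.05, where 23.1% of all genes did. There 17 of the 22 were higher, as were 46.6% of all genes. EcR was higher there by 0.25 without passing (limma adjusted p = 0.0593), its rbf1 arrays all above its PSC arrays. It passed with only the 6 arrays compared (limma adjusted p = 0.0159) and among genes above the median level (0.034).

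Across single arrays the mean of the response genes ran partly against the synthesis genes. The mean of the 22 was 9.57, 9.49 and 9.50 in rbf1 mutant discs, 9.39, 9.09 and 9.52 in PSC discs, and 9.56, 9.28 and 9.71 in control discs. In the PSC and control groups it was thus lowest in replicate 2, the array where the 7 synthesis genes were highest. In rbf1 mutant discs it was also lowest in replicate 2, where the 7 synthesis genes were lowest too. Hr3, an early-late nuclear receptor gene of the ecdysone cascade chosen here after its values had been seen, averaged 8.94 ± 0.24 in rbf1 mutant discs, 8.12 ± 0.99 in PSC discs and 8.83 ± 0.57 in control discs (SD, n = 3 each). Its lowest values were 6.999 in PSC replicate 2 and 8.19 in control replicate 2. The r between the mean of the 22 genes and that of the 10 was -0.53 over the 9 arrays and -0.68 with group means subtracted. For single response genes r over the 9 arrays ran from -0.77 (Edg78E) to 0.45 (br). Genes of wide range weigh most in the mean, such as ImpL1, which ran from 7.51 to 10.91.

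**Figure D4:**
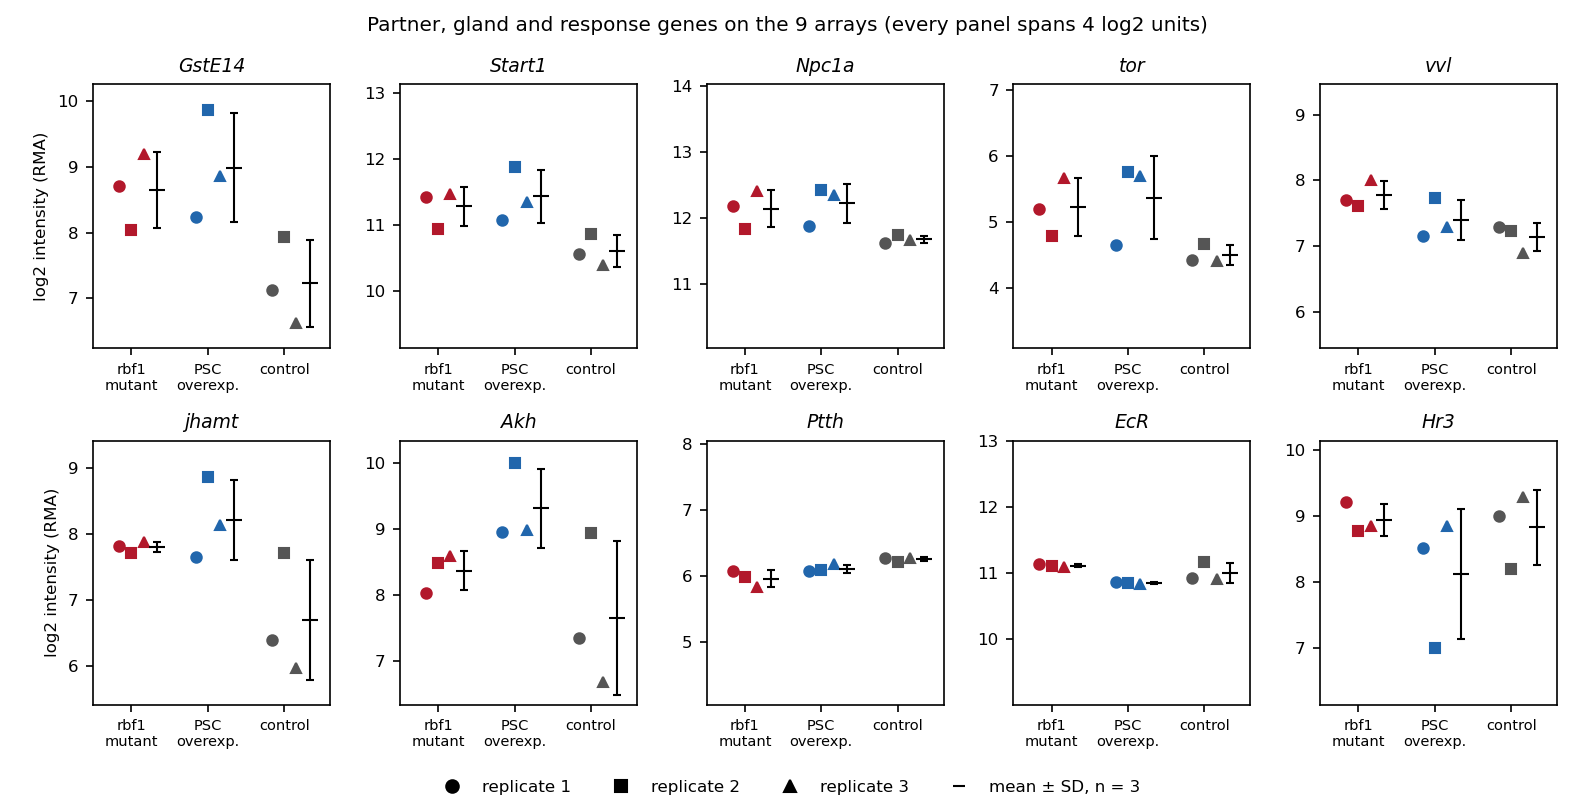
Log2 intensity by array of GstE14, sterol genes (Start1, Npc1a), gland regulators (tor, vvl), genes of the other ring gland parts (jhamt, Akh), Ptth, EcR and Hr3, in rbf1 mutant, PSC overexpressing and control discs, with the mean and SD (n = 3) beside the points. GstE14 repeats the replicate order of the synthesis genes, EcR stays between 10.84 and 11.17, and Hr3 is lowest in PSC replicate 2 at 6.999.

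Markers of other tissues were read on the same arrays. They were tested in the same fits as the eye disc and pathway genes, and the shares of all genes given for the pathway lists hold for them too. For the other parts of the ring gland 4 of 4 markers were measured, and 0 passed in any of the 3 comparisons by limma, while 1 in rbf1 mutant and 2 in PSC discs had an unadjusted p under 0.05 against control. The counts against control changed without control replicate 2, when jhamt passed in rbf1 mutant discs at 1.62 (limma adjusted p = 0.0208) and in PSC discs at 2.04 (0.0204), and Akh passed in PSC discs at 2.30 (0.021). Akh, the adipokinetic hormone gene of the corpora cardiaca, was 8.04, 8.49 and 8.59 in rbf1 mutant discs, 8.96, 10.01 and 8.98 in PSC discs, and 7.35, 8.95 and 6.68 in control discs. jhamt was 7.82, 7.72 and 7.88 in rbf1 mutant discs, 7.66, 8.87 and 8.14 in PSC discs, and 6.40, 7.72 and 5.97 in control discs. Both were highest in replicate 2 and lowest in replicate 3 among the control arrays, as the 7 synthesis genes were. They also had the order of these genes in PSC discs. In rbf1 mutant discs jhamt had it only within the narrow range of 7.72 to 7.88, and Akh did not have it, being lowest in replicate 1. Cyp6g2, of the corpus allatum, lay between 6.71 and 7.80 and Lst, of the corpora cardiaca, between 7.64 and 8.12. Against control in rbf1 and PSC discs, Cyp6g2 stood at -0.39 and 0.08, and Lst at 0.04 and -0.16. The mean of the 4 markers ran from 7.67 to 7.85 in rbf1 mutant discs, from 7.76 to 8.62 in PSC discs and from 6.89 to 8.05 in control discs, and its r with the mean of the 10 genes was 0.83. The markers differed in this: r was 0.92 for jhamt and 0.79 for Akh, but 0.27 for Cyp6g2 and 0.0015 for Lst. The part of ring gland tissue in the differences of the 10 genes was not tested.

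The brain list had 9 of 11 markers measured. In PSC discs mira rose by 0.70 and ase fell by 0.95 (limma adjusted p = 0.0492 and 0.0248), and in rbf1 mutant discs 0 passed against control, where 1 had an unadjusted p under 0.05. With 1 of the 6 arrays left out, the mira call held only without control replicate 3 and the ase call only without control replicate 2, and both were lost with only the 6 arrays compared (limma adjusted p = 0.122 and 0.0893). In rbf1 mutant against PSC discs ase was higher by 1.18 (limma adjusted p = 0.00429), whichever array was left out. dpn was lower there by 0.35 (limma adjusted p = 0.0494), a call that held only without PSC replicate 3 when 1 array was left out. mira stood at -0.52 there without passing (limma adjusted p = 0.0752), but passed with arrays centred on their medians (0.0426), only the 6 arrays compared (0.0196) or the replicate block (0.0178). The neurosecretory genes Ilp2, Ilp5, Dh44 and Crz lay between 4.29 and 5.83 on all arrays. Crz stood at 0.42 in PSC discs against control (limma adjusted p = 0.0507), with control values under the lower quartile of all genes. It passed there without PSC replicate 3 (0.0198) and with probe set means (0.0498). The mean of the list ran from 6.30 to 6.56 in rbf1 mutant discs, from 6.39 to 6.74 in PSC discs and from 6.18 to 6.44 in control discs.

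Salivary glue genes, among them genes that an ecdysone pulse in the middle of the last larval instar turns on, varied far more between arrays than the synthesis genes did. The mean of the 10 glue genes, all of them measured, was 5.81, 10.65 and 8.17 in rbf1 mutant discs, 9.78, 8.44 and 11.77 in PSC discs, and 6.20, 12.71 and 11.93 in control discs, and 0 passed in any comparison by limma, nor had any an unadjusted p under 0.05. The r of the glue mean with the mean of the 10 genes was -0.26. The 3 measured fat body markers of 6 (Lsp2, Fbp1 and Fbp2) averaged 7.10 to 8.53 in rbf1 mutant discs, 8.79 to 10.02 in PSC discs and 8.15 to 9.04 in control discs, with r = -0.02. By limma 0 of the 3 passed against control, with 1 at an unadjusted p under 0.05 in each genotype. That 1 was Fbp2 in both. Against control it passed in PSC discs without control replicate 3, at 1.53 (limma adjusted p = 0.0105), and in rbf1 mutant discs among genes above the median level (0.0493). In rbf1 mutant against PSC discs Fbp2 was lower by 2.21 (limma adjusted p = 0.00309), whichever array was left out. Of the 7 haemocyte markers, all measured, PPO1 and PPO2 fell in rbf1 mutant discs by 1.25 and 1.10 (limma adjusted p = 0.0251 and 0.0448). With 1 of the 6 arrays left out, the PPO1 call held only without control replicate 3 or rbf1 replicate 3, and the PPO2 call only without rbf1 replicate 3. In PSC discs 0 passed against control, where 2 had an unadjusted p under 0.05. In rbf1 mutant against PSC discs PPO1 and PPO2 were lower by 1.97 and 1.94 (limma adjusted p = 0.00305 and 0.0035), whichever array was left out. NimC1 was lower there by 0.84 (limma adjusted p = 0.0348), but it did not pass in any fit that left out 1 of the 6 arrays. The haemocyte list averaged 9.45 to 10.04 in rbf1 mutant discs, 10.26 to 10.73 in PSC discs and 10.20 to 10.56 in control discs, with r = -0.09. The part of larval stage in the differences of the 10 genes was not tested.

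**Figure D5:**
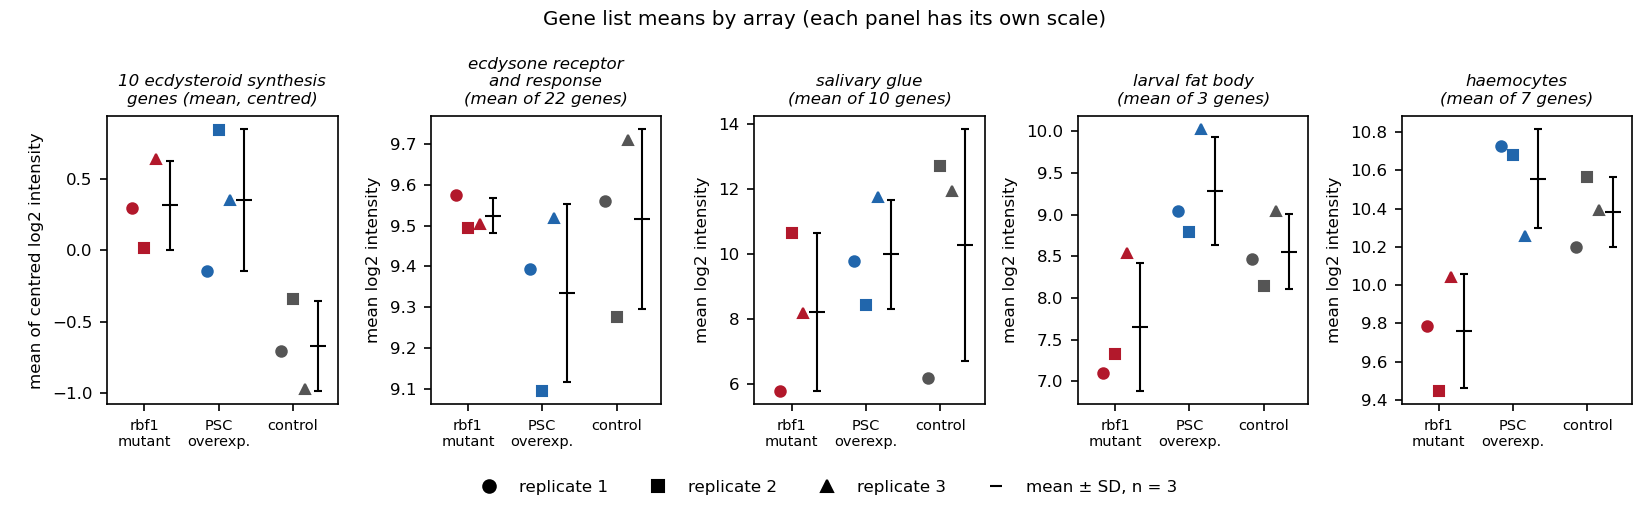
Mean log2 intensity by array of the 10 ecdysteroid synthesis genes (each centred on its own mean), 22 ecdysone receptor and response genes, 10 glue genes, 3 fat body genes and 7 haemocyte genes, with the group mean and SD (n = 3) beside the points and a separate scale in each panel. Control arrays stand lowest for the synthesis genes, from -0.97 to -0.34, and span 6.20 to 12.71 for the glue genes.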

How the data were processed

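The deposited table holds log2 intensities per probe set, made by the authors with RMA per the submitters' processing notes (version not given in the sources used here). RMA corrects background, normalizes between arrays, summarises probes, and compresses differences near background. Values were used as deposited, and dim genes were kept, so all 10 genes entered the fit. Control probe sets (183), sets with several genes (402) and sets with none (4720) were left out. Each gene was read from the probe set with the highest mean over the 9 arrays. Of the identifiers, 11894 matched RefSeq (Release 6) and 89 did not.

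A group-means model was fitted with limma 3.58.1 in R 4.3.3 to all 9 arrays, with eBayes and Benjamini-Hochberg adjustment over 11983 genes at 0.05. Standard errors are the moderated ones. On simulated data with 200 changed genes, 98.5% of genes changed by 1 log2 unit were recovered for rbf1 mutant against control (11 false calls) and 89.6% for PSC against control (10 false calls). At 2 log2 units the shares were 95.5% and 98.5%. The changed genes were drawn at random and the noise was independent between genes. The shares therefore do not give the recovery for the 10 genes, which varied widely and together between replicates in 7 cases. The 10 genes, the other lists and the tests were chosen with earlier results of these data known. Genes of the other pathway lists were named if called in a comparison, at most 6 per list, with EcR, usp and the 10 genes most like the synthesis genes; markers of other tissues were named after their values had been seen, each called one among them, and other exceptions are stated where they stand. Alternatives were array centring, the mean of probe sets, a dim gene filter, a replicate block, only the arrays compared, and leaving out each array. The number of arrays limits the precision. No sequences are shown.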

Additional observations from a re-analysis of the deposited data

How the results depend on the processing

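All 312 recomputed log2 differences of single ecdysteroid synthesis genes moved by less than the SD between replicates. Most of this was fixed in advance, so it is no sign of stability. With 3 arrays per group, leaving out 1 cannot move a difference by more than this SD, which is pooled over the groups. The replicate block, the dim gene filter and the fit with only the 6 arrays compared leave the differences unchanged. With 1 array left out, the median of the 10 genes ran from 1.10 to 1.40 for rbf1 mutant against control, from 0.96 to 1.58 for PSC against control and from -0.37 to 0.14 for rbf1 mutant against PSC. No median is given with dim genes left out, since 4 of the 10 remained. Of the 40 other pathway genes, 2, 0 and 1 were called in these comparisons. For rbf1 mutant against control the count was 1 among genes above the median level, 0 with the replicate number as a block, 1 with only the 6 arrays compared, and 0 to 1 with 1 array left out. The genes called were not always Ptth and Edg78E, the 2 lower genes of the main fit. Among genes above the median level it was br, higher by 0.15 (limma adjusted p = 0.038). Without control replicate 2 it was EcR, higher by 0.20 (limma adjusted p = 0.043). For PSC against control it was 0 to 1 with 1 array left out. For rbf1 mutant against PSC it was 0 with arrays centred on their medians, 2 among genes above the median level, 0 with the replicate block, and 0 to 1 with 1 array left out. The 2 were Oatp74D and EcR, both higher in rbf1 mutant discs. With only the 6 arrays compared EcR was called in place of Oatp74D, and without PSC replicate 1 it was ftz-f1. The causes were not tested. The median r of all 45 pairs of the 10 genes was 0.44, 0.28 with group means subtracted, and 0.40 to 0.74 with 1 array left out, the highest without control replicate 3. The main fit did not pair the samples by replicate number. Deviations from group means of same-numbered arrays correlated between -0.44 and 0.59. For rbf1 mutant with control, r was 0.59, 0.34 and 0.03 in replicates 1 to 3. Taken over all genes, these values cannot show whether some genes shared an effect of the replicate number. With the replicate number as a block, Fbp2 passed against control in rbf1 mutant discs and in PSC discs (limma adjusted p = 0.0143 and 0.0253). Lsp2 was then lower in rbf1 mutant discs than in control and in PSC discs (limma adjusted p = 0.0373 and 0.0285). ato was also lower there than in control (limma adjusted p = 0.0213), and PPO1 and PPO2 did not pass in rbf1 mutant discs against control (0.0631 and 0.0956).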

Other observations

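Ranked instead by r of deviations from the group means, 5 of the 10 genes most like the synthesis genes were the same. They were GstE14 (r = 0.99), CG4408 (0.99), cu (0.99), Lectin-galC1 (0.94) and tor (0.88). The other 5 were the lipid droplet dehydrogenase gene Ldsdh1 (0.95), the cytochrome P450 gene Cyp4e1 (0.95), CG10550 (0.90), the metallothionein gene MtnD (0.86) and CG13678 (0.86). In the opposite direction, 14 of the 470 candidate genes had r of -0.8 or lower with the mean of the 10 genes over the 9 arrays. As many, 14, had r of 0.8 or higher.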
